A study of Mus musculus with 4 samples.

Results

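The data compared here are the gene expression profiles of 2 of the 4 macrophage libraries of the series, those titled Ccrl2 and Trem2, each measured on 1 Clariom S mouse array. The libraries were chosen by their titles, and the difference Ccrl2 minus Trem2 was taken for each of 19505 named genes. All 4 populations were sorted from wild-type C57BL/6N hearts of mice 15 to 16 weeks old after transverse aortic constriction (TAC), a banding of the aorta that puts the left ventricle under pressure load. The Ccrl2 library is RNA of Ccrl2+ macrophages and the Trem2 library is RNA of Trem2+ macrophages. The CD163 and CD74 libraries, from the remaining 2 sorts, are given for context only. Cells of 6 hearts had been mixed before sorting, so that animals cannot be told apart. The source name of the sample titled CD74 gives CD9+ macrophages, and the growth protocol lists Lyve1+ cells where a title has CD163. The time after surgery is 8 weeks in the source names and 1 week in the growth protocol. The labels name no unoperated or otherwise untreated heart among the 4 samples. With 1 array per population no replicate spread exists, and no p-value, standard deviation or standard error is given. Each difference compares these 2 libraries, not the 2 cell populations in general.

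Ccrl2 encodes an atypical chemokine receptor that binds the chemoattractant chemerin without classical signalling and is induced on activated myeloid cells. Trem2 encodes a lipid-sensing receptor that signals through the adaptor Tyrobp and marks macrophages that take up lipid and cell debris. A pressure-loaded heart holds self-renewing resident macrophages beside macrophages that descend from blood monocytes, and the inflammatory genes of those monocyte-derived cells are driven in large part by the NF-kB and interferon pathways. The series title concerns monocyte-derived inflammatory Ccrl2 macrophages, and the comparison asks which genes separate them from the Trem2+ population of the same hearts.

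All levels below are the deposited log2 values, on which 1 unit is a 2-fold step. A background ceiling was set for each array at the 95th percentile of 1498 genes of smell, taste and pheromone receptors and keratin-associated proteins, which macrophages are not known to use. It lay at 5.67 in Ccrl2 and 5.51 in Trem2, and 7454 and 8144 genes exceeded it. In CD163 and CD74 the ceiling was 6.28 and 6.53, with 4984 and 3621 genes above it. The hybridisation control bioB read 8.29 in Ccrl2 and 8.12 in Trem2, bioC 9.24 and 9.20, bioD 10.77 and 10.75, and cre 11.17 and 11.07. Each spiked control thus read nearly the same on the 2 arrays. In CD74 and CD163 bioB read 6.15 and 8.49, bioC 7.57 and 10.46, bioD 10.31 and 12.62, and cre 12.34 and 13.16. The scale ends at 19.93, and 20 genes stood at that end in both libraries, so that any difference in them could not be measured. Among measured genes with a mean of 16 or more, those included, 23.7% had identical values in both libraries. In the lower bands the share was at most 0.879%. Equal values near the top, also below 19.93, therefore need not mean equal levels. Ccrl2 and Trem2 were the closest of the 6 pairs of arrays. Over the 9346 genes above the ceiling in at least 1 array, the median absolute difference was 0.48 log2 units between Ccrl2 and Trem2, against 0.74 to 1.13 in the other 5 pairs. Pearson's r across these genes was 0.942, against 0.715 to 0.879 in the other pairs, as a description over genes that share the same arrays.

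The transcripts named in the sort labels were at almost equal values in the 2 libraries. Ccrl2 had 16.58 in Ccrl2 and 16.59 in Trem2, with 14 in CD163 and 9.58 in CD74. Trem2 had 7.17 in Ccrl2 and 7.20 in Trem2, with 6.71 in CD163 and a value under the ceiling, 5.94, in CD74. Both sort genes therefore stood level in the 2 arrays, and the mRNA values give no check of either label. Cd9, a tetraspanin of lipid-associated macrophages, had 10.79 in Ccrl2 and 11.65 in Trem2. The resident macrophage receptors Cd163 (13.01 and 13.11) and Lyve1 (13.88 and 14.32) were also within 2-fold of each other. All 18 named pan-macrophage genes lay above the ceiling in both libraries, among them Csf1r, the receptor of the macrophage growth factor (19.59 in Ccrl2 and 19.19 in Trem2), the myeloid transcription factor Spi1 (19.72 in each) and the complement gene C1qa (17.15 and 17.13). Both arrays thus carry a strong macrophage profile. Of these 18, 4 were at least 2-fold higher in Ccrl2 and 0 lower, namely the lipopolysaccharide co-receptor Cd14 (15.37 and 13.26), Aif1 (10.92 and 9.73), the pore-forming protein gene Mpeg1 (13.02 and 11.84) and Adgre1, which encodes F4/80 (14.45 and 13.30).

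Of 8773 genes above the ceiling in at least 1 of the 2 arrays, 683 were at least 2-fold higher in Ccrl2 (7.79%) and 1006 at least 2-fold lower (11.5%), so that 19.3% were apart and 80.7% lay within 2-fold. Quantile normalization of the 4 columns gave 561 higher and 633 lower, and of the Ccrl2 and Trem2 columns alone 801 and 863, so the size of the excess of lower genes depends on the scaling. Values under the ceiling were used as deposited in these counts. With such values set at the ceiling instead, 476 genes were higher and 695 lower. The shares of 7.79% and 11.5% are the background against which the members of each gene group are read. The median difference over the 8773 genes was -0.08. All gene lists below were drawn up with earlier results of these data known, so none is independent evidence of its direction. Among the 1498 background genes, 8.95% differed by at least 2-fold whatever the ceiling. Of the 125 of them above the ceiling in at least 1 of the 2 arrays, 35 were counted as higher and 17 as lower. Both shares exceed those over all measured genes, so counts of genes near the ceiling can pass 7.79% and 11.5% without expression. Large differences were lopsided. At 8-fold or more 8 genes were higher and 36 lower, and at 16-fold or more 1 gene was higher, Prg4, and 19 lower. At 32-fold or more 0 were higher and 6 lower. Among the 6, S100a8, Ngp and Gzma were under the ceiling in Ccrl2. With those values set at the ceiling they were at least 98.4-fold, 20.1-fold and 16.5-fold lower. In the plot of all measured genes the points lower in Ccrl2 spread far from the diagonal, while those higher stay nearer to it.

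**Figure D1:**
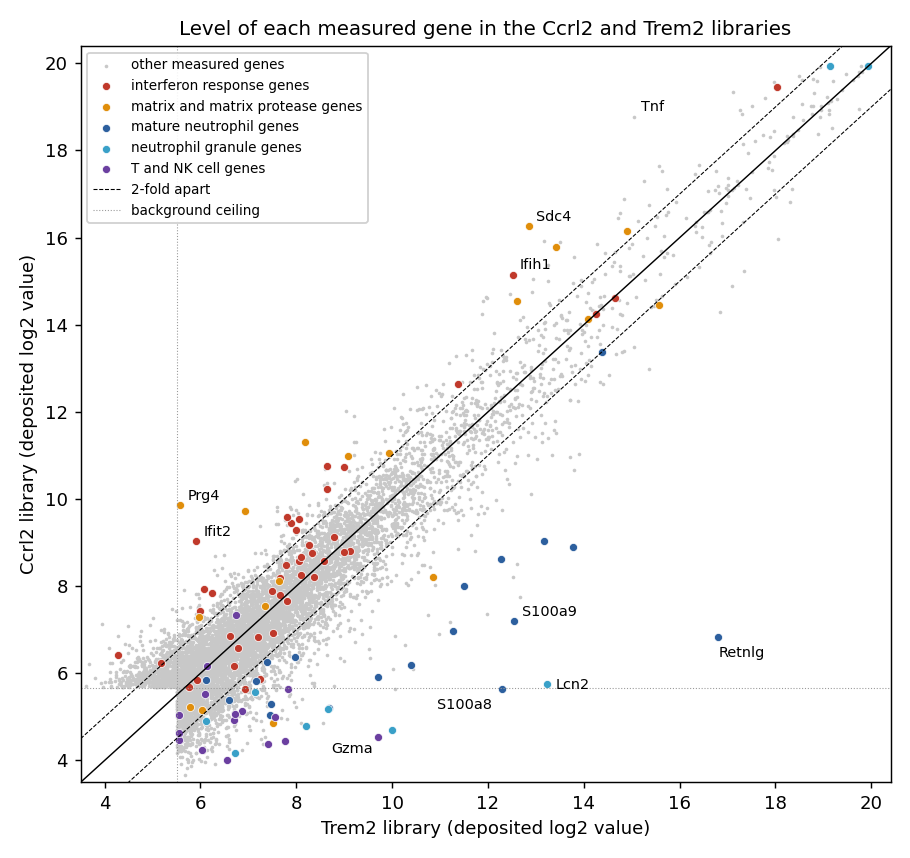
Deposited log2 value of each of the 8773 measured genes in the Ccrl2 library (vertical axis) and the Trem2 library (horizontal axis), with 5 gene lists in colour. The solid line marks equal values, dashed lines 2-fold differences and dotted lines the background ceilings of 5.67 and 5.51. Retnlg, at 6.83 in Ccrl2 and 16.81 in Trem2, lies furthest from the diagonal.

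Among the 30 genes furthest above Trem2, all 30 exceeded the ceiling in both arrays, and Ccrl2 was the highest of the 4 libraries in 29. Prg4, which encodes the lubricating matrix protein lubricin, had 9.86 in Ccrl2 and 5.58 in Trem2, with 4.56 in CD163 and 4.27 in CD74, a 19.4-fold difference from Trem2. The Trem2 value was just above its ceiling of 5.51, and those of CD163 and CD74 were under theirs. The gene of the central inflammatory cytokine, Tnf, stood at 18.78 in Ccrl2, 15.04 in Trem2, 15.38 in CD163 and 5.55 in CD74, and was 13.4-fold higher in Ccrl2 than in Trem2. Among the 30 genes furthest below, the Ccrl2 value was under the ceiling in 5, and Trem2 was the highest of the 4 libraries in 28. The other two, Gzma and Ly6c2, were highest in CD74. Retnlg, a resistin-like gene of neutrophils, had 6.83 in Ccrl2 and 16.81 in Trem2, with 5.17 in CD163 and 7.15 in CD74, a 1010-fold difference between the first 2. Lcn2, an iron-scavenging granule protein, had 5.76 in Ccrl2 and 13.23 in Trem2, against 4.57 and 5.62 in CD163 and CD74. It was 177-fold lower in Ccrl2 than in Trem2. The Ccrl2 value was just above its ceiling of 5.67, so this fold rests on a value near background. Those of CD163 and CD74 were under theirs. For Retnlg and Lcn2 alike, Trem2 stood apart from all 3 other libraries. Of the 683 genes higher in Ccrl2, Ccrl2 was the highest of the 4 libraries in 568. Of the 1006 lower ones Trem2 was the highest in 835. Such counts, also among the 30 each way, are in part set by choosing genes high in that library. The lower range of the CD74 and CD163 arrays adds to them. With quantile normalization of the 4 columns, C3ar1, C4b, Cysltr1, Pmp22 and Fbf1 were not highest in Ccrl2, and Ly6c1 was highest in CD74.

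**Figure D2:**
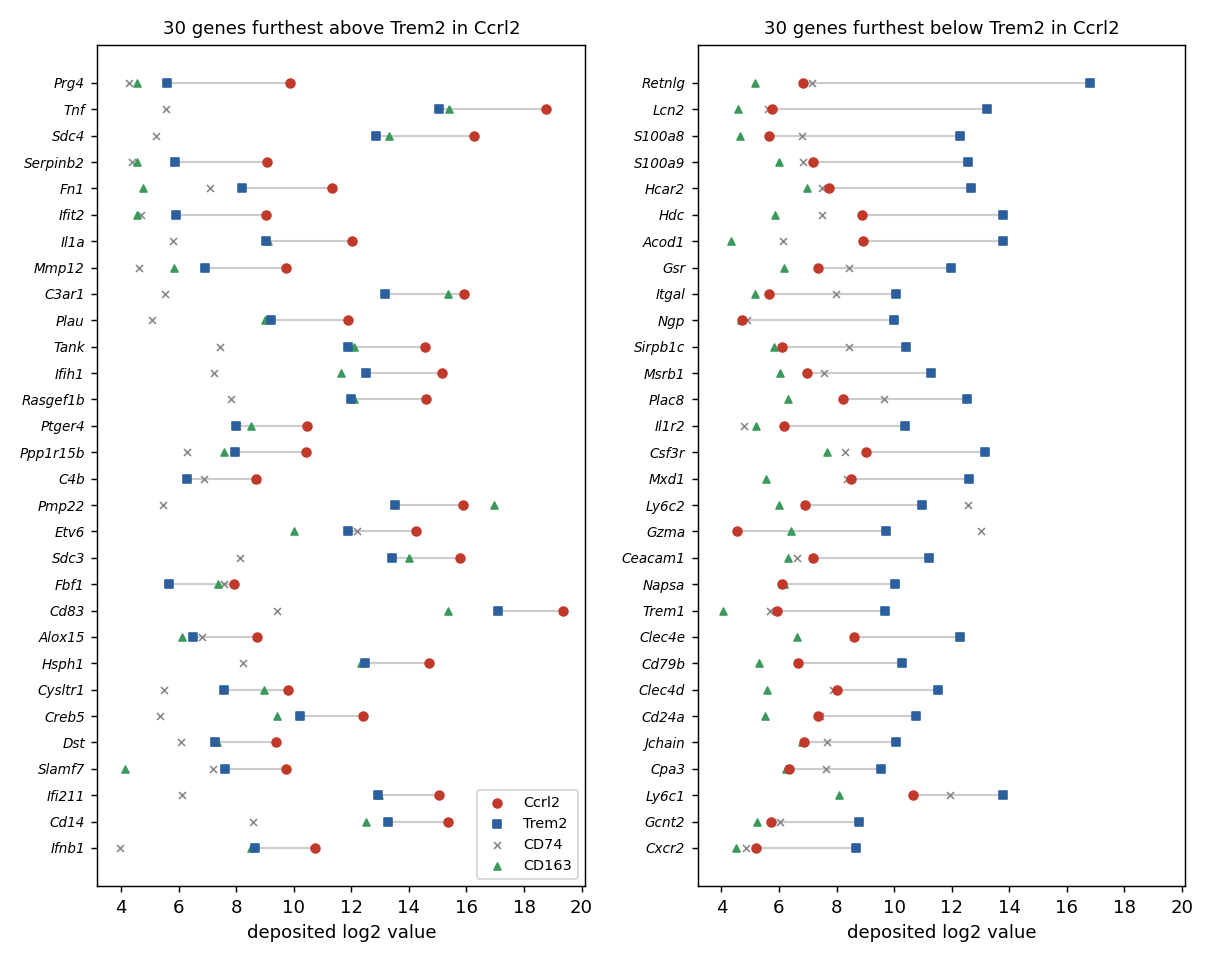
The 30 named genes with the largest difference in each direction, with the deposited log2 value in Ccrl2 (red circle), Trem2 (blue square), CD74 (grey cross) and CD163 (green triangle). A grey line joins the Ccrl2 and Trem2 values of a gene. At left Ccrl2 is rightmost in all genes but Pmp22 (15.89 in Ccrl2, 16.95 in CD163), and at right Trem2 is rightmost in all but Ly6c2 and Gzma.

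Inflammatory cytokine genes split between the libraries. Of 19 measured, 6 were at least 2-fold higher in Ccrl2 (31.6%, against 7.79% of all genes) and 3 lower (15.8%, against 11.5%), with a median difference of 0.30 against -0.08 over all genes. Besides Tnf, Il1a, an interleukin-1 released from damaged cells, stood at 12.03 in Ccrl2 and at 9.03 in Trem2, with 9.09 in CD163 and 5.82 in CD74. The growth factor gene Hbegf had 7.10 and 5.64, and Il10, an anti-inflammatory cytokine, had 8.07 and 6.84. Il27 (6.04 in Ccrl2) and Tnfsf15 (6.25) were also higher, with Trem2 values under the ceiling. The direction was the opposite for Il1b, the secreted interleukin-1, with 17.11 in Ccrl2 and 18.34 in Trem2, 16.33 in CD74 and 12.69 in CD163. Csf1, the macrophage growth factor, was lower as well (8.89 and 10.28), as was Tgfb1, a regulator of fibrosis (10.86 and 12.20). The 2 interleukin-1 genes thus differed in opposite directions, by 3 and -1.23 log2 units. Il6 (11.18 and 10.88), Osm (9.22 and 8.99) and Il1rn, the interleukin-1 receptor antagonist (9.53 and 9.33), lay within 2-fold.

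NF-kB is a family of transcription factors held in the cytoplasm by inhibitor proteins, many of which it induces in turn. Of 27 measured subunits and feedback genes, 5 were higher in Ccrl2 (18.5%) and 2 lower (7.41%), with a median of 0.49. The adaptor gene Tank, which acts in NF-kB and antiviral signalling, had 14.55 in Ccrl2 and 11.89 in Trem2. Nfkbiz, an atypical inhibitor that acts in the nucleus, had 17.31 and 15.25, and the survival genes Bcl2a1a and Bcl2a1b had 12.65 and 11.06, and 13.06 and 12.04. The Bcl2a1 genes are near-identical copies, so their probe sets may share signal. Map3k8, a kinase upstream of Tnf production, reached the 2-fold step exactly (9.28 and 8.28). The subunit genes Rel (17.08 and 16.59), Rela (14.30 and 13.70) and Nfkb2 (6.43 and 7.00) and the main inhibitor gene Nfkbia (18.45 and 17.96) were within 2-fold. Tnfaip3, a feedback enzyme gene, stood at the end of the scale in both. Traf1, an adaptor of TNF receptors, had 5.61 in Ccrl2, under the ceiling, and 7.57 in Trem2, and Tnfaip2 had 10.03 and 11.16.

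Inflammasome genes, which sense danger or microbes, showed no clear direction. Of 17 measured, 3 were higher in Ccrl2 (17.65%, against 7.79% of all genes) and 2 lower (11.76%, against 11.5%), with a median of 0.15. Among the 14 above the ceiling in both arrays, 2 were higher and 1 lower. Nlrp3, the sensor that assembles the inflammasome, had 14.75 in Ccrl2 and 12.91 in Trem2, with 8.89 in CD163 and 5.26 in CD74. Casp4, the caspase that recognises intracellular lipopolysaccharide, had 11.02 and 9.10, and the adaptor gene Pycard had 6.32 and 4.71, the last value under the ceiling. Casp1, the caspase that cleaves interleukin-1 beta, was within 2-fold (8.49 and 8.78). The decoy receptor gene Il1r2 was 18.4-fold lower in Ccrl2 (6.19 and 10.39), and Il1rap, the shared receptor chain, had 5.62, under the ceiling, and 6.77. Of 18 Toll-like receptor pathway genes, 5 were higher (27.8%) and 0 lower, with a median of 0.295. They were Cd14, the kinase gene Irak2 (9.67 and 8.03), the adaptor genes Myd88 (8.24 and 7.06) and Ticam1 (8.04 and 6.89) and the receptor gene Tlr2 (14.56 and 13.49). Tlr4 (9.88 and 9.58) and Tlr7 (18.15 and 17.32) were within 2-fold.

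Chemokine ligand genes were higher in Ccrl2 more often than lower. Of 12 CC ligands, Ccl5 (11.02 in Ccrl2 and 9.13 in Trem2), which attracts T cells and monocytes, and the monocyte attractants Ccl2 (13.42 and 12.27) and Ccl7 (11.11 and 10.09) were higher. Ccl6 was lower (12.63 and 13.82), and CD163 held the highest value of that gene (16.06). Ccl3 was at the end of the scale in both libraries. Ccl4 had 18.46 in each, but 17.59 and 17.90 with quantile normalization of the 4 columns. Of 10 CXC ligands 4 were higher (40.0%) and 0 lower. Cxcl16 had 16.57 in Ccrl2 and 14.76 in Trem2, Cxcl10 19.46 and 18.03, the neutrophil attractant Cxcl1 9.15 and 7.68, and the B cell attractant Cxcl13 7.39 and 6.32. Cxcl2, another neutrophil attractant, was at the end of the scale in Ccrl2, Trem2 and CD163, so no difference could be measured. Of 15 measured receptor genes of leukocyte attractants, 6 were lower (40.0%) and 3 higher (20%). Of the 6, Cxcr2, Ccr3, Ltb4r1 and Cxcr3 passed the ceiling through Trem2 alone, so the filter set their direction. Among the 11 receptor genes above the ceiling in both arrays, 3 were higher and 2 lower. The complement peptide receptors C3ar1 (15.92 in Ccrl2, 13.17 in Trem2, 15.36 in CD163) and C5ar1 (13.10 and 11.98) and Cmklr1, the signalling receptor of chemerin (11.59 and 10.32), were the 3 higher genes. Cxcr2, the neutrophil receptor for CXC ligands, had 5.20 in Ccrl2, under the ceiling, and 8.69 in Trem2, and Ccr1 had 8.01 and 9.74. Ccr2, the receptor that draws monocytes out of the marrow, was within 2-fold (7.49 and 7.76), as was Cx3cr1 (9.39 and 8.82).

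Interferon response genes formed one of the larger groups higher in Ccrl2. Of 50 listed, 45 had a named probe set here and 42 were measured, 39 of them above the ceiling in both arrays. At least 2-fold higher were 16 (38.1%, against 7.79% of all genes) and lower 2 (4.76%, against 11.5%), with a median of 0.47 against -0.08. Ifit2, an antiviral protein that binds foreign RNA, had 9.03 in Ccrl2 and 5.91 in Trem2, with 4.56 in CD163 and 4.68 in CD74, both under their ceilings. It was 8.69-fold higher in Ccrl2. Ifih1, the cytoplasmic sensor of double-stranded RNA, had 15.15 in Ccrl2 and 12.52 in Trem2, with 11.63 and 7.24 in CD163 and CD74. The inducing cytokine itself, Ifnb1, had 10.75 and 8.64, with 8.50 in CD163 and 3.95 in CD74. Across these 3 genes Ccrl2 was the highest of the 4 libraries.

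The effectors of the response differed by smaller steps. Oas1a, which makes the activator of an RNA-degrading enzyme, had 7.94 in Ccrl2 and 6.07 in Trem2, and Rsad2, the antiviral enzyme viperin, had 9.59 and 7.81. The relatives of Ifit2 were higher too, Ifit3 with 10.73 and 8.99, Ifit3b with 10.22 and 8.64 and Ifit1 with 9.54 and 8.05. Ifit3 and Ifit3b are close copies whose probe sets may share signal. Isg15, a ubiquitin-like protein, had 7.85 and 6.25, Mx2, a dynamin-like antiviral GTPase, 9.46 and 7.90, and the transcription factor Irf1 12.65 and 11.38. Not all members followed. Mx1 (6.92 and 7.52), Oas2 (8.58 in each), Ifitm3 (14.61 and 14.65), Irf7, the amplifier of interferon production (6.58 and 6.79), and the transcription factor genes Irf9 and Stat2 (7.67 and 7.80, 8.25 and 8.09), were within 2-fold. Gbp2, a GTPase induced by interferon gamma, was lower in Ccrl2 (5.88 and 7.25), as was Isg20, an exonuclease (5.64, under the ceiling, and 6.94).

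Many interferon-induced genes carry the interferon-stimulated response element, searched here as GAAA, any 2 bases and GAAA again on both strands in the RefSeq promoter windows of build GRCm38.p6, from 250 bases before to 50 after a start site. Of all 32851 windows, 3.44% held it, and of the measured genes with a window 4.26%. It was found in 8 of 14 interferon genes higher in Ccrl2 that had a window (57.1%), in 10 of 16 within 2-fold (62.5%) and in 1 of the 2 lower ones, Gbp2. The element was thus found in similar shares of the members that were higher and of those within 2-fold. Windows of 3 higher genes and of Gbp2 are printed with each match in capitals, to show that the same letters stand near the starts of genes that differed in opposite directions.
Ifit3 (chr19:34583279-34583578, plus strand): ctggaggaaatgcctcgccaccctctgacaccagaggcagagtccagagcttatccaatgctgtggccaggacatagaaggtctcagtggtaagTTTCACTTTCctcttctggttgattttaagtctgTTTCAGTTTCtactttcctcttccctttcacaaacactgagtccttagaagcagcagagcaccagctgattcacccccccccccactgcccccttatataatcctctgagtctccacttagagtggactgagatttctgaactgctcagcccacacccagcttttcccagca
Rsad2 (chr12:26456403-26456702, minus strand): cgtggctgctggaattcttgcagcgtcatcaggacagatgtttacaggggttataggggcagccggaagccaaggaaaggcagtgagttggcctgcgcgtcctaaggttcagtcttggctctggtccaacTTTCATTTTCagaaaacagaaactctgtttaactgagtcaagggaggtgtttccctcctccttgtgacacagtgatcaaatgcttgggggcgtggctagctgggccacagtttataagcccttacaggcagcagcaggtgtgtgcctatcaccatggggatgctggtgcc
Isg15 (chr4:156200769-156201068, minus strand): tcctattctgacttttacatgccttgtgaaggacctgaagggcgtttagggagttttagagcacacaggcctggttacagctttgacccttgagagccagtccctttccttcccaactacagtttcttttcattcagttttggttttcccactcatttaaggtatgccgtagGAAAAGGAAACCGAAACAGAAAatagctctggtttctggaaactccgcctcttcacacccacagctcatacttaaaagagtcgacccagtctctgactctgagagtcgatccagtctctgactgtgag
Gbp2 (chr3:142620413-142620712, plus strand): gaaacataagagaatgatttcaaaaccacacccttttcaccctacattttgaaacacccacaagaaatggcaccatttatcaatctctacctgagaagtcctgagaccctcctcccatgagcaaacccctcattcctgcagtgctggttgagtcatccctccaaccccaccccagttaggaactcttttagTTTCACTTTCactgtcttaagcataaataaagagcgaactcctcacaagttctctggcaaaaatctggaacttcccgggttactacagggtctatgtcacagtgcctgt
Isg15 holds 3 overlapping matches and Ifit3 holds 2, while Rsad2 and Gbp2 hold 1 each.

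**Figure D3:**
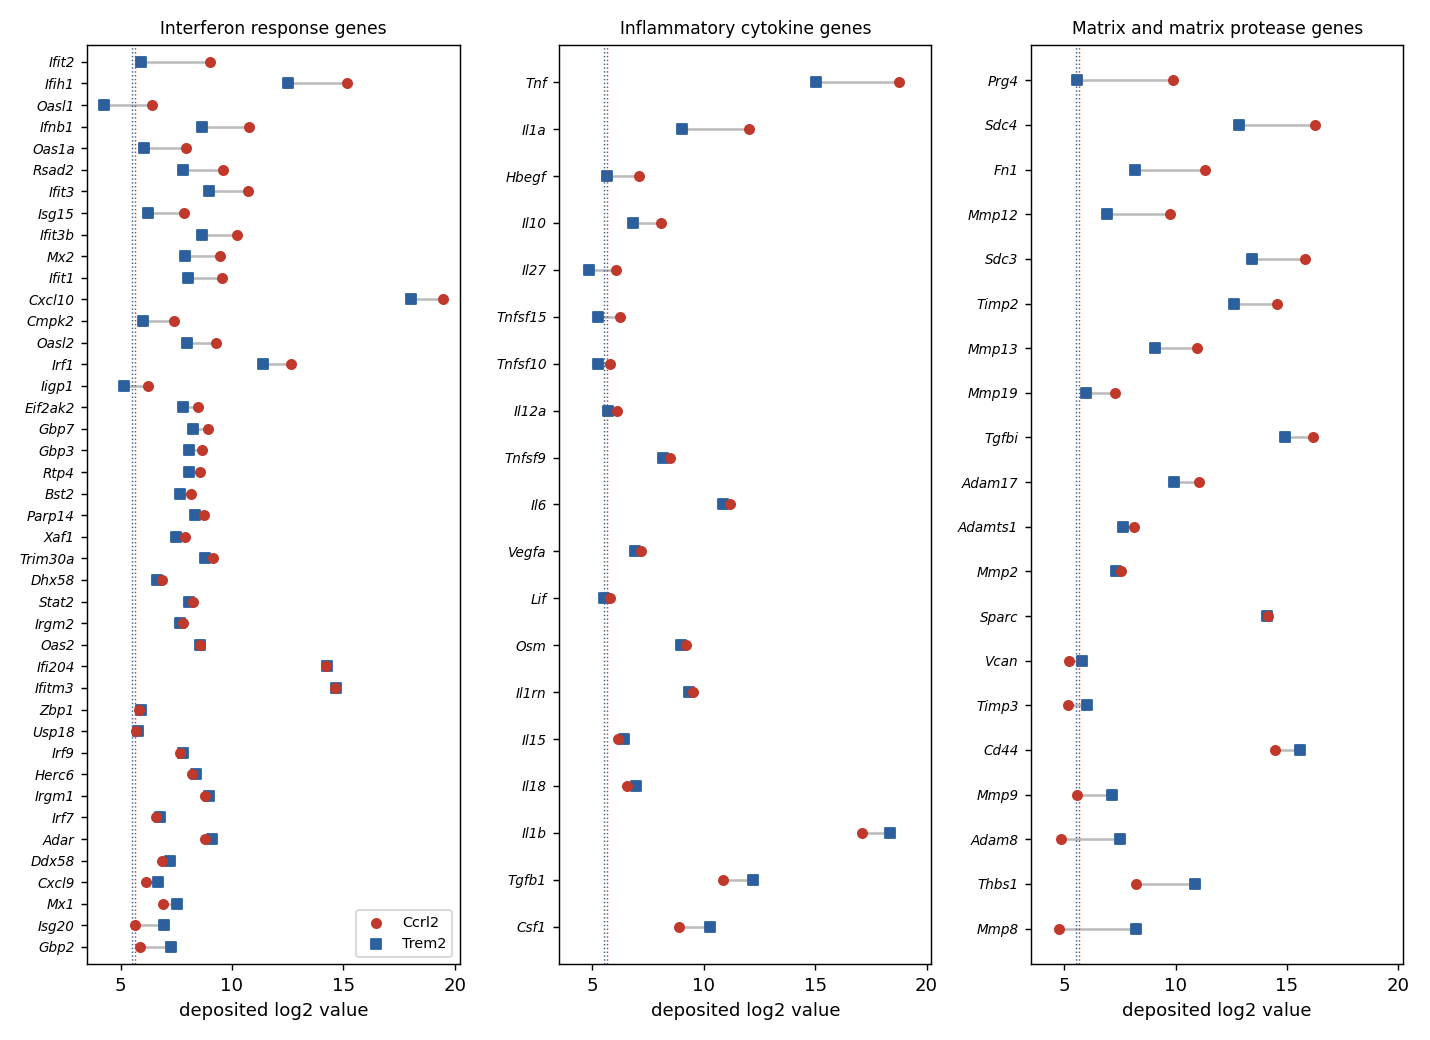
Deposited log2 values of the measured interferon response, inflammatory cytokine and matrix genes in the Ccrl2 library (red circle) and the Trem2 library (blue square), ordered by the difference, with dotted lines at the background ceilings of 5.67 and 5.51. Ifit2, Tnf and Prg4 head the 3 panels with 9.03, 18.78 and 9.86 in Ccrl2 and 5.91, 15.04 and 5.58 in Trem2.

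Genes that answer within minutes to handling or stress also leaned upward, and many of them are also known to be induced by tissue digestion and sorting. Of 31 immediate early genes, 8 were higher in Ccrl2 (25.8%) and 3 lower (9.68%), with a median of 0.34. Csrnp1, a nuclear factor, had 12.62 in Ccrl2 and 10.70 in Trem2, Fosb 19.03 and 17.52, Junb 16.38 and 15.13, Klf6 19.72 and 18.50, and Fos 19.62 and 18.55. Lower were the growth regulator Myc (10.34 and 12.43) and the phosphatase genes Dusp5 (8.86 and 11.38) and Dusp2 (5.73 and 7.52). Egr1 was at the end of the scale in Ccrl2 and had 19.79 in Trem2. Of 23 heat shock genes, 4 were higher (17.4%) and 1 lower (4.35%). These were the chaperone genes Hsph1 (14.70 and 12.47), Hspa4 (11.07 and 9.65) and the co-chaperone genes Dnajb1 (12.57 and 10.51) and Dnajb4 (9.63 and 8.47), against Fkbp4 (6.57 and 7.78). Hspa1a had 17.94 and 17.42 and Hspa1b 18.94 in each, 2 genes of nearly the same sequence. The part of such stress genes in the differences of Tnf, Il1a, Nfkbiz and other quickly induced genes was not tested.

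The heat shock element, searched as GAA, any 2 bases, TTC, any 2 bases and GAA on both strands, was in 0.603% of all windows. It was in 1 of the 4 heat shock genes higher in Ccrl2, in 3 of 16 within 2-fold (Hspe1, Hspd1 and Chordc1) and in 0 of the 1 lower gene with a window. Hsph1, the member with the largest difference, holds it 16 bases after the start site, counted from the start as base 1, and its window is shown for that reason with the match in capitals.
Hsph1 (chr5:149636266-149636565, minus strand): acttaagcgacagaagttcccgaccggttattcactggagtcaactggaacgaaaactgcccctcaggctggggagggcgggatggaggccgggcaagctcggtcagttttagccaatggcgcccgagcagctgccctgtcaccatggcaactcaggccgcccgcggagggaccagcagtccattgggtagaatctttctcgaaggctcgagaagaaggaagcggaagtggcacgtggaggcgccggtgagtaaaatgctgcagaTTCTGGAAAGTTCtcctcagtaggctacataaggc

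Matrix and protease genes were more often higher in Ccrl2 than lower. Of 20 measured, 10 were higher in Ccrl2 (50%, against 7.79% of all genes) and 5 lower (25.0%, against 11.5%), with a median of 0.80. Among the 15 above the ceiling in both arrays, 10 were higher and 2 lower, with a median of 1.34. After Prg4, the cell surface proteoglycan Sdc4 had 16.26 in Ccrl2 and 12.85 in Trem2, with 13.32 in CD163 and 5.23 in CD74, a 10.6-fold difference. Its relative Sdc3 had 15.79 and 13.42. The fibronectin gene Fn1 had 11.32 in Ccrl2 and 8.19 in Trem2, with 4.77 in CD163 and 7.08 in CD74. The macrophage elastase gene Mmp12 had 9.73 and 6.92, the collagenase gene Mmp13 10.98 and 9.08, and Mmp19 7.30 and 5.96. Inhibitor and adhesion genes were among the higher ones, with Timp2 at 14.54 and 12.61 and Tgfbi at 16.16 and 14.91. The shedding enzyme Adam17, which releases TNF from the cell surface, had 11.05 and 9.93. Among the lower members were genes also known from neutrophils. Mmp8, the neutrophil collagenase, had 4.78 in Ccrl2 and 8.20 in Trem2, Mmp9, a gelatinase of neutrophil granules, 5.58 and 7.14, and Adam8 4.86 and 7.51, with all 3 Ccrl2 values under the ceiling. Thbs1, which encodes thrombospondin, had 8.21 and 10.86, and the hyaluronan receptor gene Cd44 14.45 and 15.57.

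Plasmin, made from plasminogen by urokinase, degrades fibrin and activates metalloproteinases. Plau, which encodes urokinase, had 11.90 in Ccrl2 and 9.21 in Trem2, with 8.99 in CD163 and 5.06 in CD74, a 6.45-fold difference. Its intracellular inhibitor gene Serpinb2 had 9.06 and 5.89, with 4.54 and 4.37, under the ceilings, in CD163 and CD74. The urokinase receptor gene Plaur differed the other way (9.02 and 10.32), as did the granzyme inhibitor gene Serpinb9 (5.99 and 7.55). F13a1, a clotting factor chain of resident macrophages, was higher in Ccrl2 (15.64 and 14.45) and highest in CD163 (17.36). Of the 10 measured genes of this group, 3 were higher and 2 lower. Markers of fibroblasts moved with the matrix genes. Of 14 measured, 5 were higher in Ccrl2 (35.7%) and 0 lower, with a median of 0.89 and a summed level, on the log2 scale, of 13.49 in Ccrl2 and 13.24 in Trem2. Fbln2 and Mfap5 passed the ceiling through Ccrl2 alone, and 3 of the 10 above it in both arrays were higher. Under quantile normalization of the 4 columns 3 of the 14 were higher. Lum (9.18 and 7.72) and Postn (8.13 and 7.08) were among the higher, while Dcn (12.65 and 12.67), Col3a1 (8.48 and 8.26) and the shared matrix gene Sparc (14.13 and 14.09) lay level. The part of these markers in the matrix result was not tested.

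Genes of macrophage identity had smaller medians than the matrix genes, but the share apart was no smaller than the 19.3% of all genes. Of 20 measured genes of resident cardiac macrophages, 5 were higher in Ccrl2 (25.0%) and 0 lower, with a median of 0.015. The growth factor gene Igf1 had 13.82 in Ccrl2 and 12.13 in Trem2, Timd4, a receptor for dying cells, 7.82 and 6.42, and the lectin genes Mgl2 and Clec10a 10.73 and 9.37, and 10.62 and 9.59. CD163 had higher values than Ccrl2 in Timd4 (9.54), Mgl2 (10.91) and F13a1 (17.36). Folr2 (9.93 and 10.43), Gas6 (10.75 and 10.72) and Stab1 (9.74 and 9.86) were within 2-fold. Of 18 measured lipid-associated genes, the group known to depend on Trem2 signalling, 3 were higher in Ccrl2 and 1 lower. Gpnmb had 6.70 in Ccrl2 and 5.37, under the ceiling, in Trem2. The lipid droplet gene Plin2 had 11.74 and 10.61 and the cholesterol exporter gene Abca1 12.98 and 11.90. Fabp4, a fatty acid carrier that endothelial cells also express, was lower (14.88 and 17.09). Apoe and Ctsb were at the end of the scale in both, and Lpl (8.35 and 7.94), Cd36 (12.32 and 12.56) and Lgals3 (6.65 and 5.80) within 2-fold. By any amount, 9 of these members were higher in Ccrl2 and 7 lower.

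Class II presentation genes, whose products present antigen to helper T cells, were represented by 17 measured genes, of which 4 were higher in Ccrl2 and 5 lower. The costimulatory genes Cd83 (19.35 in Ccrl2 and 17.11 in Trem2) and Cd86 (13.30 and 11.54), the class II chain gene H2-Aa (19.20 and 17.78) and the master regulator Ciita (8.96 and 7.85) were higher. H2-Ab1 (17.15 and 16.97) and H2-Eb1 (14.38 and 14.12) were level. Lower were H2-Ob (8.02 and 10.34) and H2-Oa (5.49, under the ceiling, and 7.85), the subunits of a peptide-loading modulator best known from B cells, and H2-DMb2 (10.05 and 11.40). The thiol reductase gene Ifi30 (12.25 and 13.87) and Rfxap (5.91 and 7.11) were lower too. Genes of B cells were lower in the same library, as given below, and their part in the H2-O values was not tested. Among C-type lectin genes, 5 of 14 were higher (35.7%) and 2 lower. Clec4a1 (14.12 and 12.66), Clec4a2 (7.96 and 6.70) and Clec5a (9.28 and 8.11) were higher, while Clec4e (8.62 and 12.28) and Clec4d (8.00 and 11.51), receptors for fungal and mycobacterial glycolipids that neutrophils also carry, were lower.

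Enzymes and receptors of prostaglandins and leukotrienes were higher in 4 of 14 cases (28.6%) and lower in 1. Ptger4, a receptor for prostaglandin E2, had 10.47 in Ccrl2 and 8.01 in Trem2. Alox15, a lipoxygenase of tissue macrophages, had 8.72 and 6.49, the prostaglandin D synthase gene Hpgds 11.34 and 9.86, and Lta4h 7.88 and 6.75. Ptgs2, the inducible cyclooxygenase, was lower (10.12 and 12.90). Cysltr1, a leukotriene receptor gene, was 4.66-fold higher in Ccrl2 (9.81 and 7.59). In metabolism, 7 of 21 glycolysis and hypoxia genes were lower (33.3%) and 2 higher (9.52%). With quantile normalization of the 4 columns 3 were lower and 2 higher, since Ndrg1, Pdk1, Pfkp and Egln3 then lay within 2-fold. The lactate exporter gene Slc16a3 had 6.90 and 9.37, Ldha 9.06 and 10.66 and the glucose transporter gene Slc2a1 8.08 and 9.55. Pfkfb3, which speeds glycolysis, differed the other way (10.69 and 8.59), as did Hk2 (7.89 and 6.27). Of 18 oxidative stress and iron genes, Hmox1, the haem-degrading enzyme, was higher (19.58 and 17.96, with 19.58 in CD163). The cystine transporter gene Slc7a11 was lower (8.81 and 11.73).

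The lower side was led by genes of neutrophils, cells that are not macrophages. Of 26 listed genes of mature neutrophils, 23 had a named probe set and 19 were measured, 14 of them above the ceiling in both arrays. At least 2-fold lower in Ccrl2 were 18 (94.7%, against 11.5% of all genes) and higher 0, with a median of -3.51 against -0.08. Among the 14 above the ceiling in both, 13 were lower. The remaining member, Stfa2, had 5.85 in Ccrl2 and 6.12 in Trem2. With quantile normalization of the 4 columns 15 of the 19 measured genes were lower. Their summed level on the log2 scale was 13.69 in Ccrl2 and 17.49 in Trem2, with 12.98 in CD163 and 14.59 in CD74. S100a8 and S100a9 encode the 2 chains of calprotectin, an abundant cytosolic protein of neutrophils and monocytes. S100a8 had 5.64, under the ceiling, in Ccrl2 and 12.29 in Trem2, with 4.66 in CD163 and 6.81 in CD74, and was at least 98.4-fold lower in Ccrl2. S100a9 had 7.19 in Ccrl2 and 12.55 in Trem2, with 5.99 and 6.84 in the other 2 arrays, a 41.1-fold difference. Trem2 was the highest of the 4 libraries for both chains.

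Receptors and enzymes of the same cells followed. Csf3r, the receptor of the neutrophil growth factor, had 9.03 in Ccrl2 and 13.16 in Trem2, with 7.67 in CD163 and 8.31 in CD74. Hdc, the enzyme that makes histamine, had 8.89 and 13.77, and Trem1, an amplifier of inflammation, 5.92 and 9.70. Cxcr2 and Asprv1 were under the ceiling in Ccrl2, at 5.20 and 5.05, with 8.69 and 7.45 in Trem2. Granule genes of neutrophils are made earlier, in the marrow. Of 9 measured, 7 were lower (77.8%) and 0 higher, but 6 of the 7 passed the ceiling through Trem2 alone, so their direction was set by that filter. Ngp had 4.70 in Ccrl2 and 10 in Trem2 and was at least 20.1-fold lower, and Hp, which encodes haptoglobin, had 5.19 and 8.66. The other two granule genes, Lyz2 (19.93 in each) and Cybb (19.93 and 19.13), are also expressed by macrophages. Another 11 listed granule genes lay under the ceiling in both libraries.

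Genes outside the lists with large differences in the same direction include several that neutrophils and activated monocytes share. Hcar2, the niacin receptor, had 7.75 in Ccrl2 and 12.67 in Trem2, a 30.3-fold difference. Acod1, which makes itaconate, had 8.92 and 13.77, with 4.32 in CD163 and 6.15 in CD74. Gsr, which reduces glutathione, had 7.37 and 11.99, and Mxd1, a partner of the Myc network, 8.51 and 12.60. The adhesion gene Ceacam1 had 7.17 and 11.21 and Sirpb1c 6.10 and 10.43. The mast cell protease gene Cpa3 had 6.36 in Ccrl2 and 9.54 in Trem2, and Jchain, which links antibodies of plasma cells, 6.86 and 10.07. Trem2 was the highest of the 4 libraries for each of these 8 genes. The part of neutrophil RNA in the lower values of Il1b, Ptgs2, Clec4e, Il1r2 and other genes that neutrophils express was not tested.

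Transcription factors of the C/EBP family drive granule genes in developing neutrophils. Their element, searched as TTGCNNAA on both strands, was in 10.8% of all promoter windows and in 6 of the 21 lower neutrophil genes that had a window (28.6%), namely Retnlg, Lcn2, Ngp, S100a9, Clec4e and Mmp8. Of the 3 neutrophil genes within 2-fold it was in 0. The windows of 3 of the genes furthest below Trem2 follow, with the matches in capitals.
Retnlg (chr16:48872358-48872657, plus strand): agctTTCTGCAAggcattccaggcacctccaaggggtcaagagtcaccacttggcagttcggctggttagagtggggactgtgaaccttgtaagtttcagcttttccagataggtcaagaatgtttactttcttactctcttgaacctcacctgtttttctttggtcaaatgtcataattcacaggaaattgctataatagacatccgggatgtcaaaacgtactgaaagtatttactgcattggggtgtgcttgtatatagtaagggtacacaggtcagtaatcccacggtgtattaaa
Lcn2 (chr2:32387690-32387989, minus strand): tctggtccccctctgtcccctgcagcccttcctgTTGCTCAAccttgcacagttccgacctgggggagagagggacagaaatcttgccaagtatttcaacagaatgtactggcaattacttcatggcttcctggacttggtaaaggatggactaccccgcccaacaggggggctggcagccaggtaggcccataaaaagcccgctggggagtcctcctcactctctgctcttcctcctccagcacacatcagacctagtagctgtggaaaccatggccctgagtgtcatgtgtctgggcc
Ngp (chr9:110419558-110419857, plus strand): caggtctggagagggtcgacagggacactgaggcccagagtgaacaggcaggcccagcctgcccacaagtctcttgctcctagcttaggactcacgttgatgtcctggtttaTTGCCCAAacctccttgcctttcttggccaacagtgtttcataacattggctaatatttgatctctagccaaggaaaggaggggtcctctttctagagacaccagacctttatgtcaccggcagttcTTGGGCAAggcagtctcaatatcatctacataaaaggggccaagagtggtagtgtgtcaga
The windows of Retnlg and Lcn2 hold 1 match each and that of Ngp holds 2.

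**Figure D4:**
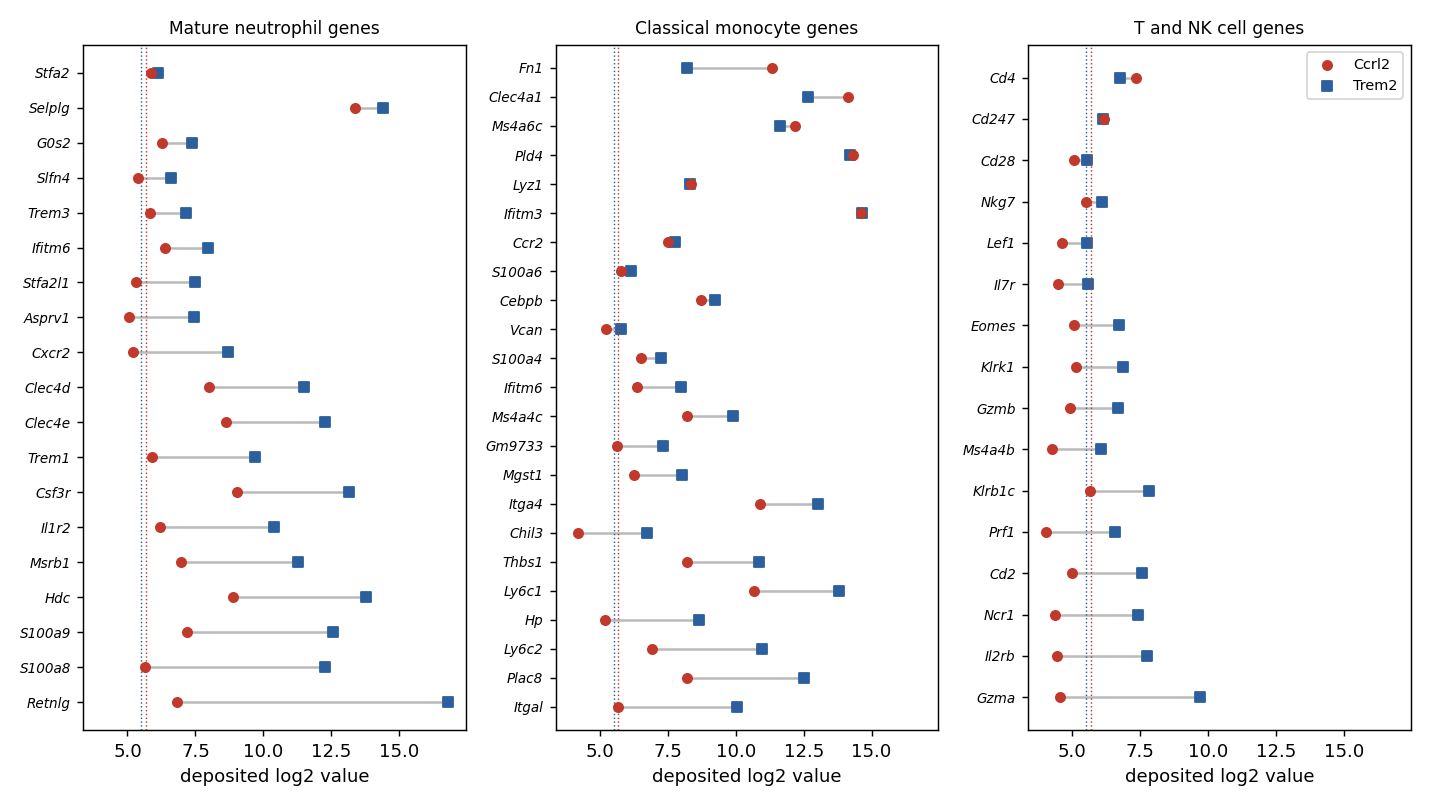
Deposited log2 values of the measured mature neutrophil, classical monocyte, and T and NK cell genes in the Ccrl2 library (red circle) and the Trem2 library (blue square), ordered by the difference, with dotted lines at the background ceilings of 5.67 and 5.51. In the neutrophil panel every Ccrl2 point lies left of its Trem2 point, from Retnlg (6.83 and 16.81) to Stfa2 (5.85 and 6.12).

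Monocyte genes were lower in Ccrl2 as well, with exceptions. Of 23 measured genes of classical monocytes, 12 were lower (52.2%) and 2 higher (8.70%), with a median of -1.60. Of the 12, Itgal, Hp, Chil3 and Gm9733 passed the ceiling through Trem2 alone, and among the 18 genes above it in both arrays 8 were lower and 2 higher, with a median of -0.625. Ly6c2, the surface antigen by which inflammatory monocytes are sorted, had 6.90 in Ccrl2 and 10.98 in Trem2, with 5.99 in CD163 and 12.55 in CD74. Plac8 had 8.22 and 12.52, and the integrin genes Itgal and Itga4 had 5.65, under the ceiling, and 10.05, and 10.91 and 13.02. Ms4a4c had 8.22 and 9.89. Other genes of the same cells were level, among them Ccr2, Lyz1 (8.35 and 8.31) and Pld4 (14.32 and 14.22), and Fn1 and Clec4a1 were higher. Of 15 genes of nonclassical, patrolling monocytes, 7 were lower (46.7%) and 0 higher. Of the 7, Treml4, Pglyrp1 and Spn passed through Trem2 alone, and among the 11 above the ceiling in both arrays 4 were lower and 0 higher. Ace, the angiotensin-converting enzyme, had 6.55 and 9.51, Adgre4 9.18 and 11.65 and Treml4 5.09, under the ceiling, and 6.98. Some listed monocyte genes, such as Hp, Chil3, Ifitm6 and Pglyrp1, are also neutrophil genes on the lists used here.

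Lymphocyte genes were mostly lower in Ccrl2 than in Trem2. Of 16 measured T and NK cell genes, 11 were lower (68.8%) and 0 higher, but 14 of the 16 were under the ceiling in Ccrl2 and passed through Trem2 alone. Gzma, a granzyme of killer cells, had 4.54 in Ccrl2 and 9.71 in Trem2, with 6.42 in CD163 and 13.01 in CD74, at least 16.5-fold lower than in Trem2. Il2rb had 4.45 and 7.76, and the NK cell receptor genes Ncr1 and Klrb1c 4.37 and 7.42, and 5.65 and 7.83. The T cell receptor genes Cd3e, Cd3d and Cd3g were not above the ceiling in either library. Of 21 measured B cell genes, 13 were lower (61.9%) and 0 higher, and among the 15 above the ceiling in both arrays 9 were lower. With quantile normalization of the 4 columns 9 of the 21 were lower. Cd79a and Cd79b, the signalling chains of the B cell receptor, had 9.66 and 11.80, and 6.65 and 10.26, and Bank1 had 11.00 and 13.33. The defining B cell genes Ms4a1 (7.15 and 7.34) and Ebf1 (9.95 and 10.62) were within 2-fold. Of 10 measured dendritic cell genes, 3 were lower, Napsa (6.10 and 10.02), Cd24a (7.35 and 10.75) and Irf4 (6.50 and 7.67). In these bulk samples, fewer cells of a type and less RNA per cell cannot be told apart.

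Of the cells of the heart wall, endothelial genes were lower in 3 of 13 cases (23.1%), among them Ly6c1 (10.66 and 13.80), which monocytes share, and Erg (6.37 and 7.71), while Cdh5 (10.86 and 11.31) and Kdr (9.20 and 9.03) were within 2-fold. Of 19 cardiomyocyte genes, 4 were lower (21.1%, or 2 genes with quantile normalization of the 4 columns) and 1 higher, with Nppa at 7.38 and 8.80, Tnni3 at 7.81 and 9.13 and Myh6 at 8.01 and 6.86. Mural cell genes were near the ceilings, with 1 of 5 in each direction, and 0 of the 3 measured erythrocyte and platelet genes were apart. Of 21 cell cycle genes, 2 were higher, Cenpe (7.18 and 5.92) and Tyms (7.57 and 6.34), and Mki67 had 9.34 and 9.13. Ribosomal protein genes leaned the other way. Of 55 measured, 22 were lower in Ccrl2 and 0 higher, beside 11.5% lower and 7.79% higher over all measured genes. The median was -0.92, with a 10th and a 90th percentile of -1.92 and -0.04. This group is not one of the 33 lists and was not recomputed under other scalings or filters. Rpl28 and Rps29 were chosen as examples after their values were seen. Rpl28 had 14.29 in Ccrl2 and 16.84 in Trem2, and Rps29 12.99 and 15.36. The plot of all 33 lists places the listed groups side by side.

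**Figure D5:**
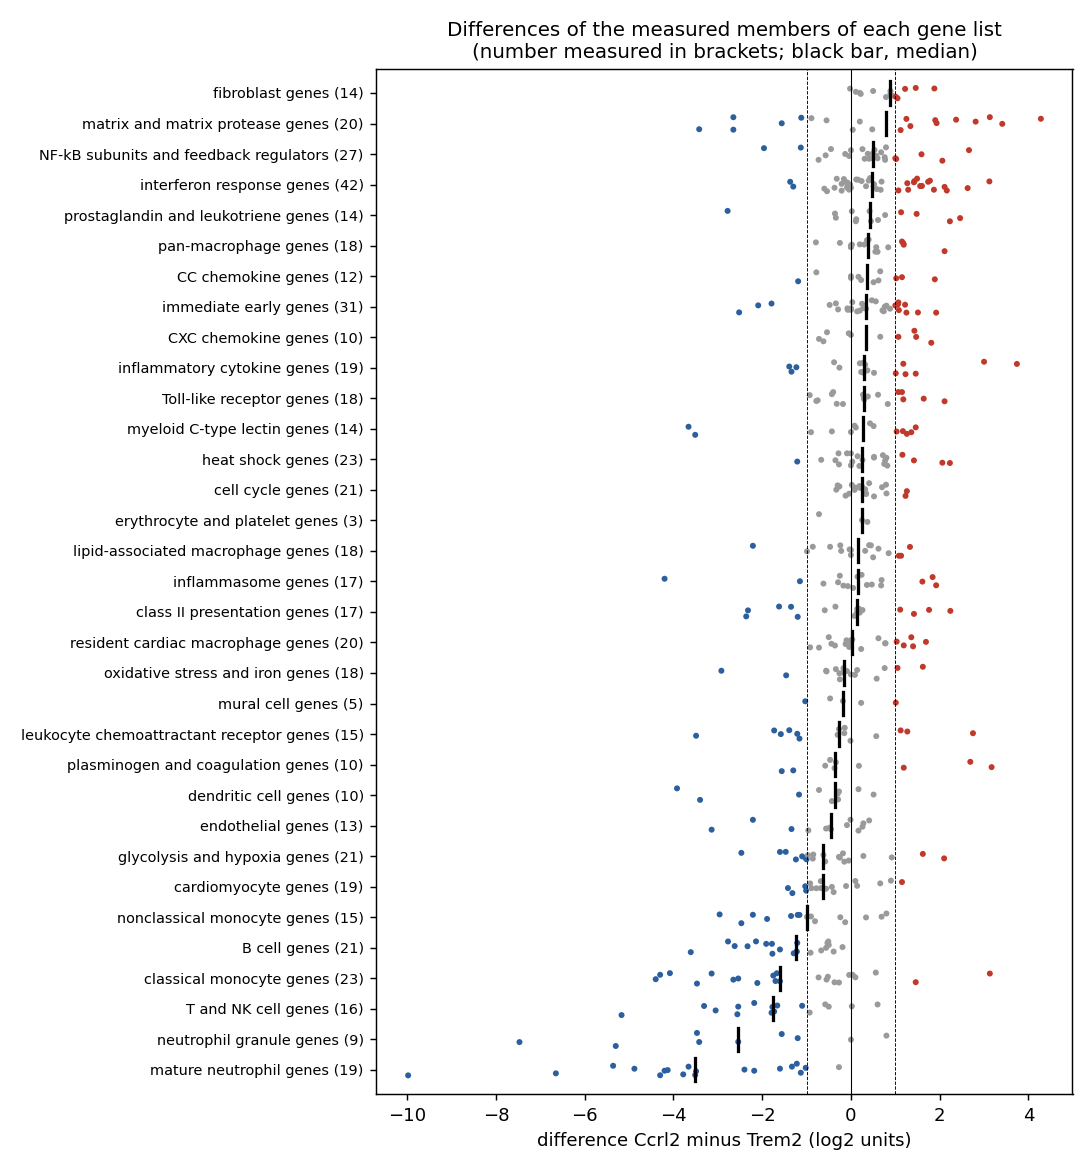
Difference Ccrl2 minus Trem2, in log2 units, of each measured member of 33 gene lists, with a black bar at the list median and dashed lines at 2-fold. Red points are at least 2-fold higher in Ccrl2, blue points at least 2-fold lower. Medians run from -3.51 for mature neutrophil genes to 0.89 for fibroblast genes.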

How the data were processed

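RNA of sorted macrophages was amplified and hybridised to 1 Clariom S mouse array per population. The deposited values are on a log2 scale from 2.97 to 19.93. The authors obtained them by Robust Multichip Average background correction, normalization and summary and analysed them in GeneSpring, per the labels' protocols, while Affymetrix Expression Console is the tool named per the submitters' processing notes. The settings of that step were not stated in the sources used here. The 4 columns do not share one distribution, with 95th percentiles from 8.45 to 10.21 over all probe sets, so quantile normalization was tried as an alternative. The log2 base was taken from the range of the deposited values and the method.

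Of 28846 probe sets, 6640 controls were left out. Of 22206 gene probe sets, the platform annotation pairs 19572 with 1 symbol, 0 with more than 1 and 2634 with none. The 19505 genes were each read from the probe set with the highest mean over the 4 columns, which was a choice for 55 genes. The difference is the Ccrl2 value minus the Trem2 value, with no further scaling. A gene was measured if it exceeded the ceiling of its array, the 95th percentile of 1498 background genes, in Ccrl2 or Trem2, and was counted as apart at a log2 difference of 1 or more. Where a value lay under its ceiling, the fold is given as a bound against that ceiling. Values within 0.015 of the highest value count as the end of the scale. With 1 array per group no test was made, and precision is limited by the number of arrays. The counting rule was tested on simulated data.

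The members and the 33 gene lists, of 720 different genes in all, were chosen with earlier results of these data known. Some genes are on several lists. Of the 720 genes, 665 had a named probe set and 529 were measured. The text names the sort genes, Tnf, Prg4, Retnlg and Lcn2, the 30 named genes furthest apart each way with values under the ceiling set at it, up to 6 members of each list with the largest absolute difference, and members that give a count its exceptions. That ranking of 30 left out histones, antigen receptor segments, predicted genes, small RNA genes, background genes, sex-linked markers and genes at the end of the scale in both arrays. Cd74 was not analysed here. A list's summed level is the log2 of the sum of its measured members' linear values.

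Alternatives changed the scaling, the probe set rule, the filter on dim genes, the treatment of dim and saturated values, the fold step and the list summary. Promoters come from a RefSeq table of build GRCm38.p6 and hold 250 bases before and 50 after a start. Python 3.11.15, numpy 2.4.6, pandas 2.3.3 and matplotlib 3.10.9 were used.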

Additional observations from a re-analysis of the deposited data

How the results depend on the processing

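No replicate array exists, so neither culture, animal nor array error can be set beside any value. No paired analysis was possible because each population has 1 array and the labels carry no replicate numbers. A list median was taken as moved when it shifted by more than the SD of the difference over background genes, 0.583, divided by the square root of the number of measured members, a choice made for this purpose. Values near the ceilings and at the end of the scale limit what the arrays can separate. Under quantile normalization of the 4 columns, 21 of 237 recomputed gene differences moved by at least 0.583. None was labelled as reversed under the 4 scaling and probe set alternatives. That label was open only to genes already at least 2-fold apart, so its absence says little. The small differences of Ccrl2, Trem2 and Cd163 changed sign under that normalization, from -0.01, -0.03 and -0.10 to 0.12, 0.08 and 0.05.

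Quantile normalization of the 4 columns gave 561 genes higher and 633 lower, of which 554 and 626 were shared with the counts as deposited. It moved 7 list medians, to -2.23 for neutrophil granule, -3.06 for mature neutrophil, -1.22 for classical monocyte, -1.43 for T and NK cell, -0.96 for B cell, -0.46 for cardiomyocyte and -0.41 for glycolysis genes. Tnfaip2, Map3k8, Cxcl13, Irf4, Erg, Postn, Fkbp4, Fos, Il1rap, Tnfsf15, Isg20 and Rfxap were within 2-fold under it, as were Ndrg1, Pdk1, Pfkp and Egln3, and Cybb was 2-fold higher. Normalizing the Ccrl2 and Trem2 columns alone gave 801 and 863 genes and medians of 0.59 for interferon and 0.24 for pan-macrophage genes. Median centring could not change any difference, because the Ccrl2 and Trem2 columns have the same median over gene probe sets, 5.13. The mean over probe sets could change only 55 genes, and it left all 33 list medians and both counts within their bounds.

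The fold step gave 1604 higher and 2088 lower at 1.5-fold, and 60 and 134 at 4-fold. Requiring both arrays above the ceiling gave 414 and 567 genes. It turned the T and NK cell median to 0.31, over 2 genes, and gave -0.625 for classical monocyte, -0.27 for endothelial, 0.32 for lipid-associated, 1.34 for matrix, -3.72 for mature neutrophil, 0 for neutrophil granule and -0.81 for nonclassical monocyte genes. Without a filter the CXC chemokine median turned to -0.015 and the plasminogen median to 0.18. It was -0.49 for T and NK cell, -0.73 for classical monocyte, -0.15 for endothelial, 0 for lipid-associated, 0.05 for matrix, -2.40 for mature neutrophil, 0.095 for C-type lectin, -0.34 for neutrophil granule and 0.26 for prostaglandin genes. With the column median as filter, medians were -1.10 for T and NK cell, -1.17 for classical monocyte, 0.48 for matrix, -2.05 for neutrophil granule and -0.11 for plasminogen genes.

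Leaving out saturated genes gave 0.66 for CXC chemokine, 0.47 for immediate early, 0.37 for lipid-associated, 0.43 for C-type lectin and -3.42 for neutrophil granule genes. The mean over members in place of the median was of the other sign for C-type lectin (-0.0779), plasminogen (0.26) and class II genes (-0.13). It was -1.42 for B cell, -0.42 for cardiomyocyte, -1.33 for classical monocyte, -0.98 for dendritic cell, -0.62 for endothelial and -0.46 for glycolysis genes, and 0.41 for heat shock, 0.50 for cytokine, 0.65 for interferon, 0.57 for matrix and 0.30 for resident macrophage genes. The causes were not tested, except that each filter changes which genes enter.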
